A study of Mus musculus with 19 samples.

Results

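A set of 9 genes that encode transcription factors of hepatocyte identity was followed across the binding maps of YAP and TEAD in mouse liver: Hnf4a, Foxa1, Foxa2, Foxa3, Cebpa, Cebpb, Onecut1, Prox1 and Gata4. They are 9 of 22350 protein-coding genes on the numbered chromosomes and X, and they were chosen by name. For each gene a window was set as the gene body with 20 kb on either side, from the GENCODE annotation of the NCBIM37 (mm9) mouse genome, and every deposited peak that overlapped it by at least 1 bp was taken.

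Binding of YAP and TEAD was mapped by chromatin immunoprecipitation and sequencing (ChIP-seq) in 19 liver samples that made up 6 groups. All mice were C57BL/6 and carried the ROSA26-rtTA-IRES-EGFP allele, the doxycycline-responsive activator, which Cre recombinase under the albumin promoter switches on in hepatocytes. WT livers had no tetYAP transgene and came from mice fed doxycycline for 7 days, and induced livers carried tetYAP, an activated YAP under doxycycline control, and came from mice fed doxycycline for 3 days (3 d) or 7 days (7 d). There was thus no WT group fed for 3 days. Each group had 3 replicates, apart from TEAD at 7 d with 4. The authors merged the replicates before calling peaks, so that each group is 1 peak list, the values below have no replicate error, and no difference between groups was tested. Whole liver was used, so peaks of hepatocytes and of other liver cells cannot be told apart, and no RNA was measured in these samples with which to check the tissue. Gata4 and Prox1 are also known from liver endothelial cells.

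TEAD proteins bind DNA, and YAP, which the Hippo pathway restrains, acts as their coactivator. In adult liver, HNF4A, the FOXA pioneer factors, the C/EBP proteins, ONECUT1 (HNF6) and PROX1 bind each other's genes and hold the hepatocyte program in place, while GATA4 acts with FOXA factors from early liver development on.

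The merged libraries held between 34260362 and 55032002 tags. Those of TEAD held 35168765 in WT, 55032002 at 3 d and 38523843 at 7 d, so that the 3 d library was the deepest. The YAP lists had 156 peaks in WT, 110 at 3 d and 1478 at 7 d, and the TEAD lists had 5695, 36446 and 38984. The fragment length that the caller recorded was 400 bp for TEAD in WT livers, 207 bp at 3 d and 206 bp at 7 d. Pileup, the number of extended fragments over a peak's summit, is therefore read only within a list, as a rank from 1 for the highest pileup, and how far the short WT list reflects the library or the liver was not tested.

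The 200 bp around the summit of the strongest 7 d TEAD peak are shown for 6 of the genes, 3 with a TEAD motif and 3 of those without, to show the contrast. Among all 9 genes, 3 such stretches held the motif and 6 did not. Within 150 bp of the summit, the distance used for the motif counts below, the Cebpb and Foxa3 peaks held it too, at 122 bp and −128 bp. They were read from the plus strand of NCBIM37 (mm9), 5′ to 3′. Capitals mark a match to the TEAD core motif GGAATG or its reverse complement CATTCC, or to the AP-1 motif TGANTCA, where N is any base.
Onecut1 (chr9:74714691-74714890): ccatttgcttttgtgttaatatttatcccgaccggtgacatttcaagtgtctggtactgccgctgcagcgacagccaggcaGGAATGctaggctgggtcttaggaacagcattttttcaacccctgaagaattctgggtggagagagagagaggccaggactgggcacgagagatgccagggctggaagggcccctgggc
Cebpa (chr7:35893127-35893326): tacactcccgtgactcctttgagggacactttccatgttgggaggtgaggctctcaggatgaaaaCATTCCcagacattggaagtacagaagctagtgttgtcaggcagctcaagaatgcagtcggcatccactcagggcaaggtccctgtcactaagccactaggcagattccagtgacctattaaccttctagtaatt
Gata4 (chr14:63862809-63863008): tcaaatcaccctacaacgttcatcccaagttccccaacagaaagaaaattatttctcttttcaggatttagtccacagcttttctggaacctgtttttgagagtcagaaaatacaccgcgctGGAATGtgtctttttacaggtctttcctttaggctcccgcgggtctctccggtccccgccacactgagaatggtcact
Hnf4a (chr2:163361035-163361234): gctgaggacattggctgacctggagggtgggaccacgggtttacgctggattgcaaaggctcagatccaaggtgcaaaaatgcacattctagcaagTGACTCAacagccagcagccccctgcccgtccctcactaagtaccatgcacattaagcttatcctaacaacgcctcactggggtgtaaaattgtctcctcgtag
Foxa1 (chr12:58638925-58639124): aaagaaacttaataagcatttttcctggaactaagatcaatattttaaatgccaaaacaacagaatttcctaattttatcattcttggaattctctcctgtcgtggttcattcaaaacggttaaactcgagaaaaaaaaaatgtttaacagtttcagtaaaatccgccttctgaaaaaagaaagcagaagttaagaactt
Prox1 (chr1:191931030-191931229): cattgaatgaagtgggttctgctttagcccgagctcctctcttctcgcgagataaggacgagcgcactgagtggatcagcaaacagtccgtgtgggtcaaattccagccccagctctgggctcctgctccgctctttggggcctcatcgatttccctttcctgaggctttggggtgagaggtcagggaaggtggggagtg
A TEAD motif lay at −16 bp from the summit at Onecut1, −32 bp at Cebpa and 25 bp at Gata4, counted to the motif's centre. At Hnf4a an AP-1 motif, the site of the JUN and FOS family, lay at −1 bp and no TEAD motif was found in the stretch shown. The Foxa1 and Prox1 stretches held none of the 5 motifs searched (TEAD, AP-1, forkhead, HNF4 and C/EBP), although their peaks ranked among the top 10% of the list. The Foxa1 stretch had a GC content of 30% and the Prox1 stretch 57%.

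No YAP peak overlapped any of the 9 windows in WT, at 3 d or at 7 d. Over all protein-coding genes, 0.139% had a YAP peak in the window in WT, 0.192% at 3 d and 6.34% at 7 d, so that at 9 genes the count of 0 lies near the background. The same held at promoters, defined as 2000 bp upstream to 1000 bp downstream of any annotated start: 0 of the 9 genes and 1.04% of all genes had a YAP promoter peak at 7 d.

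TEAD peaks were present at all 9 genes in induced livers. In WT livers 4 of the 9 windows, those of Cebpb, Onecut1, Prox1 and Gata4, held 1 TEAD peak each, against 25.4% of all genes with at least 1. At 3 d all 9 windows held TEAD peaks, 55 in total, against 65.3% of all genes, and at 7 d all 9 held 58, against 66.5%. These counts depended on list length: with only the 5695 strongest peaks of each TEAD list, 8 peaks lay at 6 of the genes at 3 d and 5 peaks at 5 genes at 7 d, beside the 4 peaks at 4 genes in WT. The share of all genes under this cut was not computed, so whether these counts differ from the background cannot be said. Hnf4a, Foxa1, Foxa2, Foxa3 and Cebpa had TEAD peaks at 3 d and 7 d and none in WT, a pattern that 36.8% of all genes shared. With 20 kb on either side of the 5′ end in place of the gene window, which gives each gene the same length, 9 of 9 genes had a peak at 3 d and 8 of 9 at 7 d, against 57.7% and 58.3% of all genes. The gene without one at 7 d was Gata4, whose 5′ end is the outermost of several annotated starts. Its strongest 7 d peak lay 27620 bp from that end but 1176 bp inside from the start of Gata4-001.

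The windows differed more from the background in the number of peaks than in their presence. Summed over the 9 windows there were 0.917 TEAD peaks per 10 kb at 3 d and 0.967 at 7 d, and over all genes 0.269 and 0.278. In WT the values were 0.0667 and 0.0417. Peaks in the 9 windows were of common strength for their list: the median pileup was 35 at 3 d and 34 at 7 d, where the whole lists had medians of 36 and 33. Of the 55 peaks at 3 d, 6 (10.9%) were among the top 10% of the list by pileup, and of the 58 at 7 d, 3 (5.17%).

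**Figure D1:**
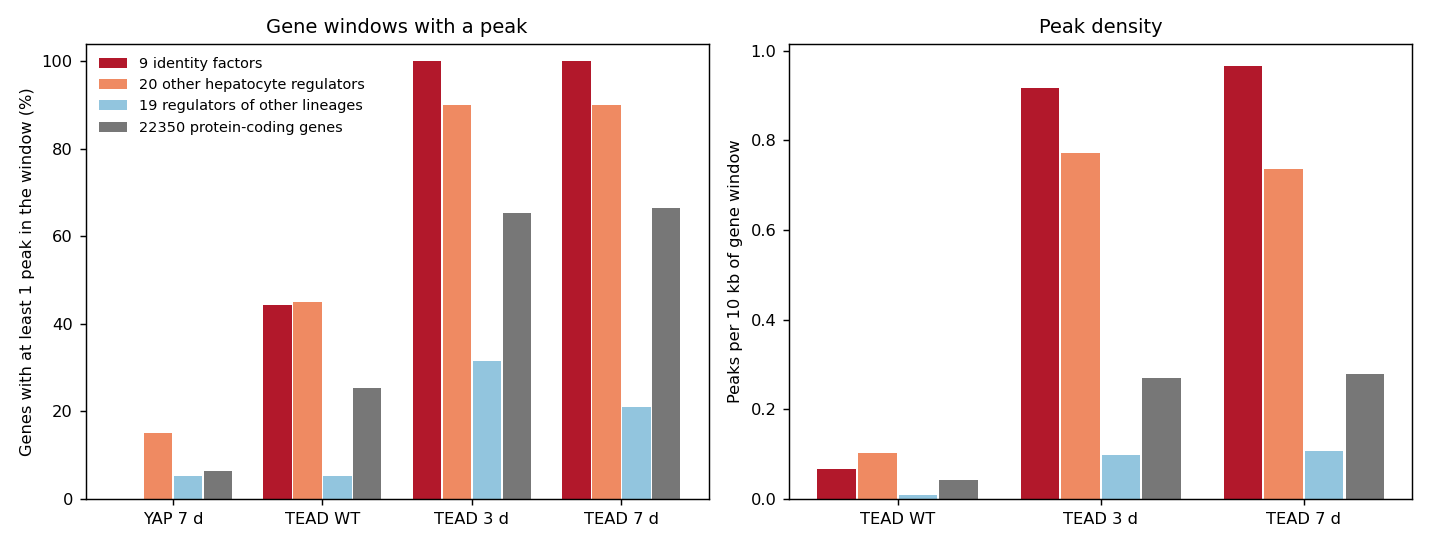
Share of genes with at least 1 peak in the gene window (left, %) and peaks per 10 kb of window (right) for the 9 identity factor genes, 20 other hepatocyte regulators, 19 regulators of other lineages and all 22350 protein-coding genes. Bars are counts from 1 merged list a group and have no error; the identity factor bars reach 100% at 3 d and 7 d for TEAD and are at 0 for YAP at 7 d.

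A further pair of gene lists gives the same measures for related genes. Of 20 other hepatocyte regulators found in the annotation (21 listed, Cebpd not matched), 9 had a TEAD peak in WT, 18 at 3 d and 18 at 7 d, with 0.772 peaks per 10 kb at 3 d and 0.736 at 7 d. Their strongest 7 d peak, rank 675, lay at Nr1h4, the gene of the bile acid receptor FXR, whose window held 11 TEAD peaks. Of 19 regulators of other lineages (20 listed, Sox1 not matched), 1 had a TEAD peak in WT, 6 at 3 d and 4 at 7 d, with 0.0979 and 0.108 peaks per 10 kb. Their strongest 7 d peak, rank 1748, lay at Olig2, a factor of oligodendrocyte and motor neuron precursors. YAP peaks at 7 d lay in the windows of 3 of the 20 hepatocyte regulators and 1 of the 19 others, Olig2. These lists were chosen with results of these data known and the differences between them were not tested.

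Hnf4a encodes a nuclear receptor that activates a large share of hepatocyte genes. Its gene spans 66.1 kb (chr2:163332544-163398646, plus strand) and has an upstream and a downstream set of starts. The window held no TEAD peak in WT, 12 at 3 d and 14 at 7 d, the most of the 9 genes in each induced list. As many peaks or more were found at 1.60% of all genes at 3 d and 0.998% at 7 d, though its window of 106 kb is longer than the median of 55.4 kb over all genes.

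The strongest Hnf4a peak in both induced lists was the same site inside the gene (chr2:163360692-163361321 at 7 d), in an intron of Hnf4a that the non-coding gene 0610008F07Rik also overlaps. Its pileup was 85 with 11.7-fold enrichment at 3 d, rank 2993, and 78 with 15.4-fold at 7 d, rank 4753. The 7 d summit lay at −1620 bp from the start of transcript Hnf4a-202, within the promoter as defined, and 28591 bp from the 5′ end of the gene. This start lies between the upstream and the downstream set. No TEAD peak lay in the promoter as defined of a start in either set. A run of 4 further sites with a peak at 3 d, 7 d or both followed over the next intronic stretch, between 31723 and 35009 bp from the 5′ end. At the site at −12506 bp, nearest to R3hdml, pileup was 32 at 3 d and 61 at 7 d, or 60.1% and 18.9% down the respective list. Of the 14 peaks at 7 d, 11 were nearer to a start of Hnf4a than to that of another coding gene.

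**Figure D2:**
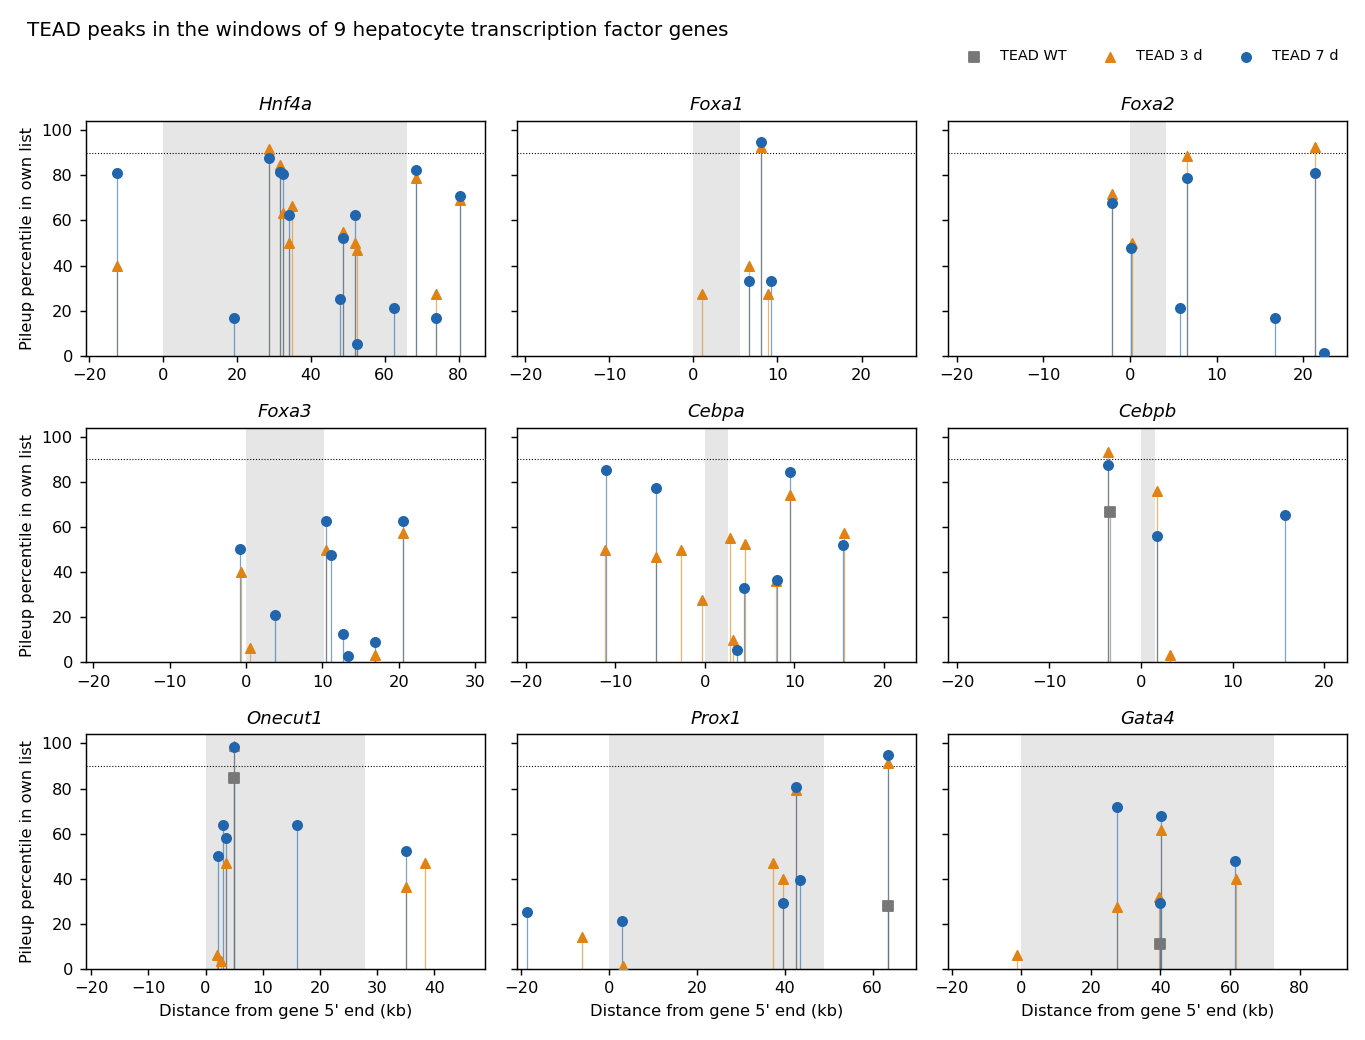
TEAD peaks in the 9 windows, by distance of the summit from the 5′ end of the gene in the direction of transcription (kb, horizontal) and percentile of pileup within the peak's own list (vertical, 100 is the highest pileup). Grey squares are WT, orange triangles 3 d and blue circles 7 d, the shaded band is the gene body and the dotted line the 90th percentile; at 7 d only the Foxa1, Onecut1 and Prox1 windows have a circle above it.

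The 3 FOXA genes encode forkhead factors that open chromatin for other liver regulators, and they differed from each other in peak number and strength. Foxa1 (chr12:58641618-58647108, minus strand) held no TEAD peak in WT, 4 at 3 d and 3 at 7 d. Its strongest peak (chr12:58638697-58639263 at 7 d) lay between genes, 8083 bp from the 5′ end and past the 3′ end of the gene, with a pileup of 89 and 13.5-fold enrichment at 3 d, rank 2682, and 115 and 26.2-fold at 7 d, rank 2054. The other Foxa1 peaks had pileups of 27 to 32. A promoter peak, with a pileup of 29, was called at 3 d and not at 7 d.

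Foxa2 (chr2:147868613-147872705, minus strand) held no TEAD peak in WT, 4 at 3 d and 7 at 7 d. Its strongest site lay in an intron of the neighbouring non-coding gene 9030622O22Rik, 21293 bp from the 5′ end of Foxa2. Pileup there was 89 with 14.6-fold enrichment at 3 d, rank 2682, and 61 with 14.4-fold at 7 d, rank 7379. All 4 sites with a peak at both times ranked lower at 7 d than at 3 d, and the 3 sites found only at 7 d had pileups of 18 to 24. Promoter peaks were called at both times, one close to the start of Foxa2-004 and one at −2038 bp from that of Foxa2-001 at 7 d.

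Foxa3 (chr7:19598631-19608887, minus strand) held no TEAD peak in WT, 5 at 3 d and 8 at 7 d, with pileups of 23 to 38 and 19 to 40. The highest, 38 at 3 d, rank 15572, and 40 at 7 d, rank 14618, stood just above the list medians of 36 and 33. Here the coding gene nearest to the peaks was mostly not Foxa3: 1 of the 5 peaks at 3 d and 1 of the 8 at 7 d had its nearest coding start at Foxa3, and the others lay nearer to Irf2bp1 or Sympk. The window also takes in Mypop.

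The C/EBP genes are short and encode basic leucine zipper factors, Cebpa with a part in the metabolic functions of mature hepatocytes and Cebpb in the acute phase and regeneration. Cebpa (chr7:35904312-35906945, plus strand) held no TEAD peak in WT, 10 at 3 d and 7 at 7 d, the highest density of the 9 windows, with 2.35 and 1.64 peaks per 10 kb. The summits of all these peaks lay outside the gene body, and for all of them Cebpa had the nearest coding start. The strongest peak changed between the lists: at 3 d it lay 9548 bp from the 5′ end, with a pileup of 49 and rank 9400, and at 7 d at −11085 bp (chr7:35892805-35893537), with a pileup of 71, 16.7-fold enrichment and rank 5680. At this upstream site the 3 d pileup was 35. A peak over the promoter with a pileup of 29 was called at 3 d and not at 7 d, and 4 of the Cebpa sites had a peak at 3 d only.

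Cebpb (chr2:167514415-167515918, plus strand) held 1 TEAD peak in WT and 3 in each induced list. A single site, in an intron of Tmem189, held the strongest peak in all 3 lists (chr2:167510666-167511064 at 7 d, −3555 bp from the start). Its pileup was 45 with 5.98-fold enrichment in WT, rank 1909, then 93 with 15.3-fold at 3 d, rank 2428, and 77 with 18.1-fold at 7 d, rank 4879. In shares of the list these ranks were 33.5%, 6.66% and 12.5%, where the WT list is much the shortest. No promoter peak was called in any list.

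Onecut1 held the strongest TEAD site of the 9 genes in each of the 3 lists. The gene, for HNF6, spans chr9:74709728-74737591 on the plus strand. Its single WT peak had a pileup of 59 with 7.84-fold enrichment, rank 867 of 5695. The same site had 171 with 28.1-fold at 3 d, rank 424 of 36446, and 167 with 39.4-fold at 7 d, rank 691 of 38984. The 7 d peak (chr9:74714205-74715144) had its summit 500 bp inside from the start of the shorter transcript Onecut1-002 and 5063 bp from that of Onecut1-001, in an intron that Gm16551 also overlaps. A pair of weaker promoter peaks stood upstream of the Onecut1-002 start in both induced lists, with pileups of 23 and 34 at 3 d and 41 and 37 at 7 d. The sequence of the main site, shown above, holds the TEAD motif, and the WT and 3 d summits lay within 150 bp of this same motif.

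**Figure D3:**
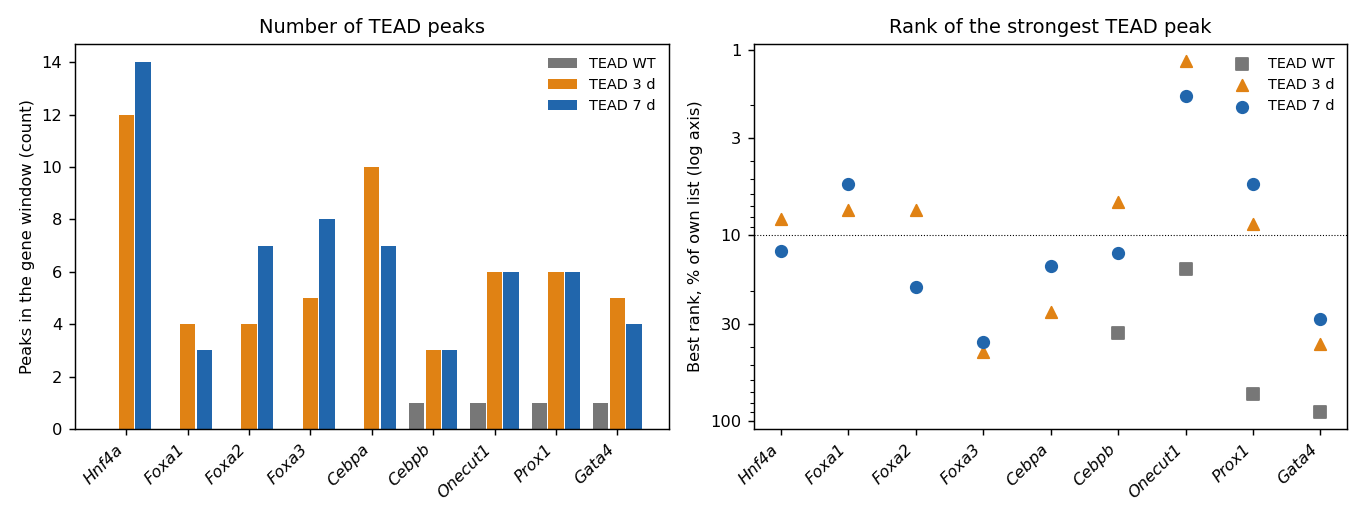
Number of TEAD peaks in each gene window (left, count) and rank of the strongest TEAD peak as a share of its own list (right, %, log axis with the strongest at the top). Bars and points are 1 merged list each, without error; genes without a WT point had no WT peak, the dotted line marks 10%, and Onecut1 lies at the top in all 3 lists.

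Prox1, whose homeobox product acts as a corepressor of HNF4A and sets lymphatic endothelial identity elsewhere, spans chr1:191945660-191994559 on the minus strand. Its window held 1 TEAD peak in WT and 6 in each induced list. A site past the 3′ end of the gene (chr1:191930176-191931366 at 7 d), 63429 bp from the 5′ end, was the strongest in all 3. Pileup was 34 with 4.52-fold enrichment in WT, rank 4099, 83 with 13.6-fold at 3 d, rank 3169, and 115 with 26.2-fold at 7 d, rank 2054. These ranks were 72.0%, 8.70% and 5.27% down the respective list. The lists differ in length, and sites of the whole genome with a peak in all 3 had median positions of 47.3%, 9.49% and 12.2%. No promoter peak was called in any list.

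Gata4 spans 72.8 kb (chr14:63817759-63890529, minus strand) and held 1 TEAD peak in WT, 5 at 3 d and 4 at 7 d, the lowest density of the 9 windows in the induced lists at 0.443 and 0.355 peaks per 10 kb. The WT peak was among the weakest of its list, with a pileup of 30 and rank 5076 (89.1% down the list). At 3 d the strongest peak had a pileup of 40 and rank 14083. At 7 d it was another site (chr14:63862738-63863101), 1176 bp inside from the start of Gata4-001, with a pileup of 48, 11.3-fold enrichment and rank 11018. All 4 peaks at 7 d had their summits in the gene body.

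By pileup of the strongest peak the order at 7 d was Onecut1, then Foxa1 and Prox1 with equal pileup, Hnf4a, Cebpb, Cebpa, Foxa2, Gata4 and Foxa3. No replicate spread is available to separate neighbours in this order, and Hnf4a and Cebpb were only 1 fragment apart in pileup. Ranked by p-value, Cebpb (4665) came ahead of Hnf4a (5115), and by fold enrichment both Cebpb (4275) and Cebpa (4989) came ahead of Hnf4a (5878). Windows with a peak in the top 10% of its list numbered 0 of 9 in WT, 6 of 9 at 3 d (Hnf4a, Foxa1, Foxa2, Cebpb, Onecut1 and Prox1) and 3 of 9 at 7 d (Foxa1, Onecut1 and Prox1). Over all genes the shares were 3.53%, 17.4% and 17.0%. The order of 3 d and 7 d turned when only peaks of at least 5-fold enrichment were kept and ranked, which left 1 top 10% peak at 3 d and 3 at 7 d. The top 10% began at a pileup of 79 at 3 d and 87 at 7 d, and Hnf4a with 78 and Cebpb with 77 at 7 d lay just outside it. Promoter peaks were found at 1 of the 9 genes in WT (Onecut1), 7 at 3 d and 5 at 7 d, against 8.70%, 38.9% and 37.6% of all genes. For Hnf4a only the start of transcript Hnf4a-202 had one.

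Merging overlapping peaks of the lists gave 69 TEAD sites in the 9 windows. Of these, 4 (5.80%) had a peak in WT, at 3 d and at 7 d, 37 (53.6%) at 3 d and 7 d, 13 (18.8%) at 3 d only and 15 (21.7%) at 7 d only. Over the genome the shares were 11.4%, 46.1%, 18.2% and 23.7%. None of the sites had a peak in WT only, a class with 0.110% of the genome's sites. Sites found in a single induced list were weak, with a median pileup of 29 for those at 3 d only and 24 for those at 7 d only, whereas the 4 sites that WT livers also had reached medians of 88 at 3 d and 96 at 7 d. The genome's sites of these classes differed in the same direction, as their median ranks were 76.8% and 66.9% down the list for the single-list sites at 3 d and 7 d, and 9.49% and 12.2% for those present in all 3 lists.

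Among the 41 sites with peaks at both 3 d and 7 d, 25 (61.0%) stood higher in the 7 d list than in the 3 d list, and over the genome 11847 of 27078 (43.8%) did. The median position moved from 50.1% to 37.5% down the list at these 41 sites and from 36.8% to 39.0% over the genome. Members went different ways: all 4 such sites of Foxa3 and all 3 of Gata4 stood higher at 7 d, and none of the 4 of Foxa2 or the 2 of Cebpb did. Hnf4a was mixed, with 6 of 11 higher at 7 d. Both lists were called against the same control library, and sites of 1 window are not replicates, so these counts carry no test.

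**Figure D4:**
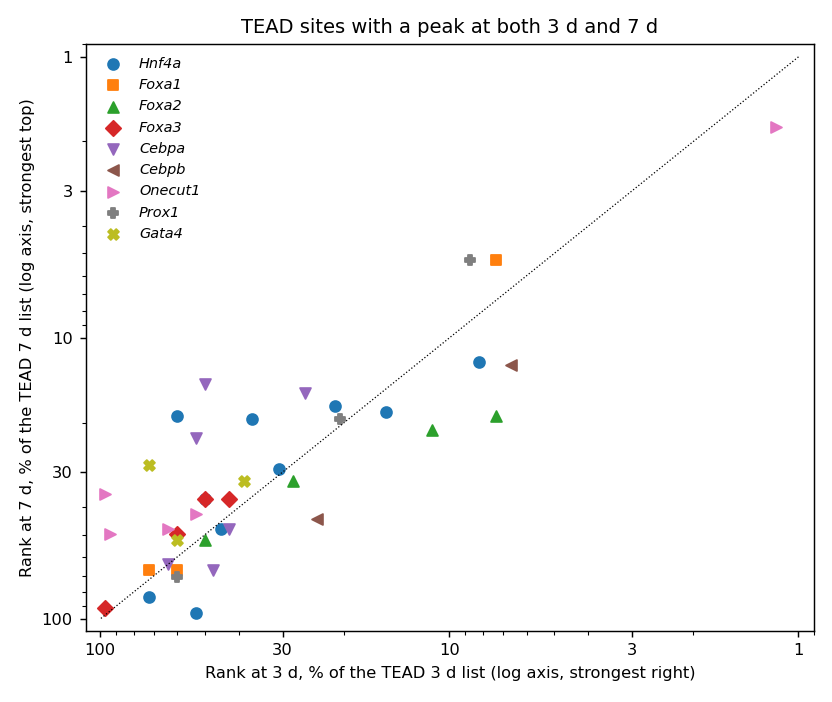
Rank of each of the 41 sites with TEAD peaks at both times, as a share of the 3 d list (horizontal, %) and of the 7 d list (vertical, %), on log axes with the strongest peaks to the right and at the top. Each point is 1 site, coloured by gene, and 25 of the 41 lie above the dotted line of equal rank.

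No YAP peak was called at the TEAD peaks of these windows. None of the 58 from 7 d (0 of 58) coincided with a YAP peak from that time, which allows a share of up to 5.17%, and over the whole 7 d TEAD list 3.58% did. Overlap with YAP depended on strength over the list: 29.4% of TEAD peaks in the top 10% by pileup overlapped a YAP peak and 0.691% of the others. The 9 windows held 3 peaks of the first kind and 55 of the second, all without YAP. At these numbers a share like that of the list could not be told from 0.

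The YAP peaks nearest to these genes lay outside the windows, some of them not far. The closest at 7 d was 23.2 kb downstream of Cebpb (chr2:167539090-167539453), in an intron of A530013C23Rik, with rank 301 of 1478 and 7.31-fold enrichment. Next was a peak 24.9 kb upstream of Hnf4a (chr2:163307343-163307606), rank 921, whose nearest coding start was that of Fitm2. The peak 54.1 kb upstream of Gata4 (chr14:63944678-63945052), rank 1330, was the only one of the 9 nearest YAP peaks whose nearest coding start was that of the gene itself. The others lay at 145 kb from Onecut1, 201 kb from Cebpa, 394 kb from Prox1, 641 kb from Foxa2, 663 kb from Foxa3 and 1547 kb from Foxa1. A TEAD peak of the 7 d list overlapped each of these 9 YAP peaks. Over the genome 1394 of the 7 d TEAD peaks overlapped a YAP peak. The 7 d YAP list had 1456 peaks on the numbered chromosomes and X. The share of YAP peaks with a TEAD peak was not computed, so the overlap is not read as particular to these 9. At the Cebpb neighbour TEAD had a pileup of 55 in WT, 68 at 3 d and 174 at 7 d, ranks 1066, 4855 and 594, and at the Hnf4a neighbour it had no WT peak, 76 at 3 d and 142 at 7 d, ranks 3844 and 1125. Both stood higher in the 7 d list than any TEAD peak inside the window of the same gene. Chosen as the nearest YAP peaks, these sites are given as a description of what lies just past the 20 kb limit.

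The letters of the TEAD motif were no more frequent in these windows than over the list. Within 150 bp of the summit, 20 of 58 peaks at 7 d (34.5%) held GGAATG on either strand, against 39.0% of the list, and 15 of 55 at 3 d (27.3%), against 34.5%. In the WT list 2 of the 4 peaks did, against 53.6%. Among the 3 top 10% peaks at 7 d only that of Onecut1 held it, where the top 10% of the whole list had 63.9%. By gene, 5 of the 14 Hnf4a peaks, 4 of the 7 Cebpa peaks and 4 of the 6 Onecut1 peaks at 7 d held the motif, and none of the 3 Foxa1 peaks did.

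Motifs of other factors were searched in the same stretches. AP-1 letters (TGANTCA) were found in 5 of the 58 peaks at 7 d (8.62% against 11.9%), 4 of them at Hnf4a and 1 at Cebpb. The forkhead letters TGTTTAC were found in 8 (13.8% against 7.64%), 3 of them at Hnf4a. The C/EBP letters TTGCNNAA were found in 9 (15.5% against 19.5%) and the HNF4 letters CAAAGTCCA in none, against 2.02%. The search covered both strands, motifs of different factors could overlap, and a match is a description of the letters and not of binding.

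**Figure D5:**
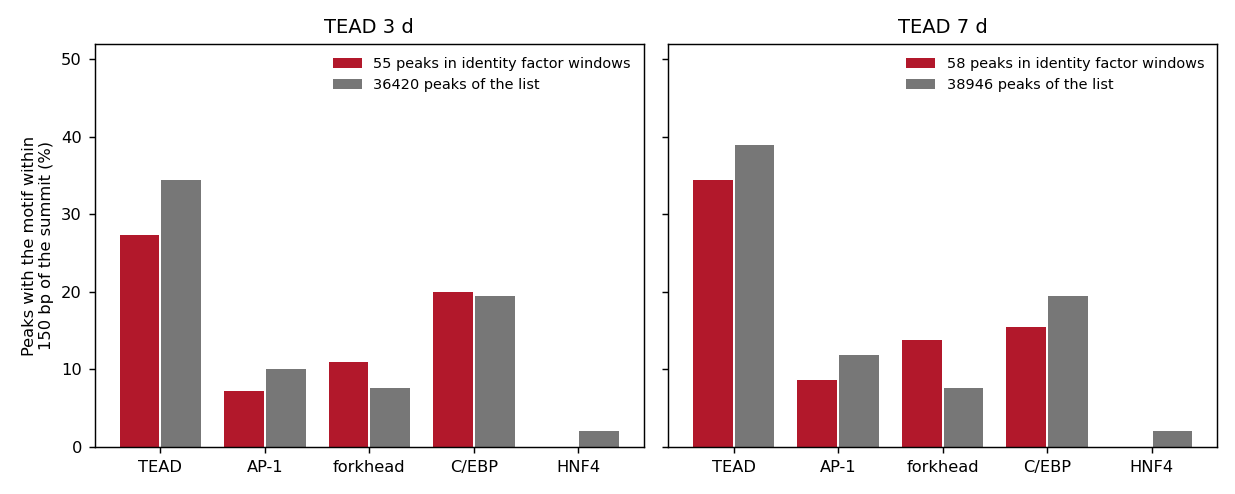
Share of TEAD peaks with each motif within 150 bp of the summit (%), for the peaks in the 9 windows (red) and the whole list (grey), at 3 d (left, 55 and 36420 peaks) and 7 d (right, 58 and 38946 peaks). At 7 d the red bar is the higher of the pair for forkhead only, by 13.8% to 7.64%, and no error is drawn because peaks of 1 list are not replicates.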

How the data were processed

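The authors aligned reads to mm9 with BWA (version 0.6.2), merged replicates, removed duplicates and called peaks with MACS2 (version 2.0.9) at a p-value of 1e-05 against 1 control library of 167176362 tags taken from published data. The deposited lists give peak positions, the pileup (a signal, as fragments over the summit), the fold enrichment (a ratio to the local background), and, also deposited, the −log10 p-value and the −log10 q-value of the caller. YAP tissue was fixed with DSG and formaldehyde and TEAD tissue with formaldehyde alone, and the TEAD antibody was raised against TEAD4 and is said to recognise TEAD1 and TEAD3 as well. From these lists, peaks were counted in gene windows and promoters, ranked by pileup within a list, merged into sites, and searched for motifs in the NCBIM37 genome, with Python 3.11.15, numpy 2.4.6, pandas 2.3.3 and matplotlib 3.10.9. Overlap code was checked on made-up peaks. The genes and gene lists were chosen with earlier results of these data known. All 9 genes are named, each with its strongest peak in every list, and sequences are of the strongest 7 d TEAD peak. Other sites described were picked after their values were seen. Shares and limits for a count of 0 cover counting error only, from 3 counts. Alternatives were p-value and fold filters, other windows, equal list lengths, other overlaps, ranks, promoters and sequence stretches.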

Additional observations from a re-analysis of the deposited data

How the results depend on the processing

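Over 14 alternative settings, 164 recomputed counts and shares kept to the main value (counts within 1.5 times it) and 35 did not, while all 44 recomputed ranks of strongest peaks stayed within 1.5 times. Many of the 164 were counts of 0 in both settings, mostly for YAP, which a filter or a shorter window cannot change. The YAP lists were also left whole where the TEAD lists were cut to equal length. The tally is therefore no measure of how stable the TEAD counts were. With −log10 p of at least 10, sites at 3 d only numbered 7. With at least 5-fold enrichment there were 2 WT peaks at 2 genes and 32 peaks at 3 d. Of the 3 d peaks 1 was in the top 10% (3 at 7 d). In this setting 4 genes had a promoter peak at 3 d and 5 at 7 d. Sites numbered 2 in all 3 TEAD lists and 4 at 3 d only. With 50 kb on either side, 2 genes (Hnf4a and Cebpb) had a YAP peak at 7 d, 2 in all, and 2 TEAD peaks overlapped YAP; TEAD peaks numbered 89 at 3 d and 94 at 7 d, top 10% peaks 1 in WT and 7 at 7 d, and sites 61 at 3 d and 7 d, 20 at 3 d only and 24 at 7 d only. With 20 kb around the 5′ end there were 2 WT peaks at 2 genes, 32 peaks at 3 d with 3 in the top 10%, 34 at 7 d, and 2 sites in all 3 lists and 20 at 3 d and 7 d. These settings keep fewer peaks or use shorter or longer windows, and what moved each count was not tested. With only the 5695 strongest peaks of each TEAD list, there were 8 peaks at 6 genes at 3 d and 5 at 5 genes at 7 d, 2 genes had a promoter peak at 3 d and 2 at 7 d, and sites numbered 1 in WT only, 2 at 3 d and 7 d, 3 at 3 d only and 0 at 7 d only. With summits at most 100 bp apart, 1 site was WT only. The TEAD motif share at 7 d stayed within its counting interval. No paired analysis was possible because every group is 1 list of merged replicates that carries no replicate number, and for the same reason leaving out a replicate was not run. Depth differs between lists and, for TEAD, so does the fragment length, and their part in the number of peaks in WT and induced livers was not tested.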
